A study of Mustela putorius furo with 10 samples.

Results

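The spliceosome genes of ferret peripheral blood mononuclear cells (PBMC) were compared between cold-exposed and control animals. Members were the genes whose RefSeq ferret symbol belongs to the SRSF, SF3A, SF3B, HNRNP, PRPF, SNRP, SNRNP, U2AF or LSM families and whose probes gave a green signal well above background on at least 4 of 10 arrays. The RefSeq table holds 88 such genes, of which 63 were matched to a sequence on the array and 60 were measured, among 26303 features tested. The 25 genes without a match include HNRNPA1, HNRNPU, SRSF2 and U2AF1, so that the families are covered in part. Whether target sequences under other accessions stand for them was not tested. A feature was a named gene, or an unnamed target sequence on its own. SF3B5 and SRSF12 were not well above background on any array. SNRNP48, just outside the threshold, reached 3 arrays with its best probe. Just inside it was U2AF1L4, measured by 1 of its 4 probes on 7 arrays. Of the 60 members, 59 kept all their probes and 58 were detected on all 10 arrays by their best probe, and no member had a saturated spot.

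Splicing removes introns from nuclear transcripts. The small nuclear ribonucleoproteins (snRNPs) U1, U2, U4, U5 and U6 assemble on each intron, and each holds an RNA on a ring of Sm proteins, or of the related LSm proteins in U6. SR proteins (SRSF genes) mostly favour the use of nearby exons, whereas heterogeneous nuclear ribonucleoproteins (HNRNP genes) coat new transcripts and often repress exons. In lymphocytes and monocytes the same machinery also selects the isoforms that accompany activation.

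PBMC were prepared by Ficoll gradient from blood of male ferrets of 3 months of age. Control animals were kept at 22 °C and cold animals at 4 °C for 1 week. The design names 7 animals per group, of which 6 control and 4 cold animals had an array. Individual housing is stated beside the cold animals, and whether it also held for the controls is unclear. If it did not, temperature and housing cannot be told apart. RNA of each ferret was labelled with the green dye Cy3 and hybridised to its own 2-colour Agilent array, beside a red Cy5 reference pool of PBMC mixed with other tissues, with no dye swap. Values are log2 ratios of Cy3 over Cy5 after loess normalisation within the array, averaged over the probes of a gene. A log2 change is the mean of cold minus the mean of control. Changes were tested with limma over all features, and "called" below means an unadjusted limma p under 0.05.

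PBMC are a mixture, and its markers moved between the groups. The counts that follow are at an unadjusted p, where 12.5% of all features were called lower and 12.2% higher, and no marker passed adjustment. Of 9 T cell markers measured, 6 were called lower in cold, with the list's mean log2 ratio at 0.08 to 0.39 on control arrays and -0.74 to 0.10 on cold arrays. Called higher in cold were 5 of 7 monocyte markers (0.01 to 0.48 against 0.48 to 1.15), 5 of 7 neutrophil markers (0.51 to 1.22 against 1.52 to 1.94) and 5 of 7 platelet markers (-0.05 to 1.37 against 0.89 to 1.81). Of 4 red cell precursor markers, 3 were called lower (0.18 to 1.12 against -0.85 to -0.06). No B cell marker of 8 (-0.09 to 1.27 against 0.46 to 0.79) and no NK cell marker of 6 (0.31 to 0.86 against 0.14 to 1.05) was called, and PAX5 and KLF1 were not detected. In such bulk RNA, fewer cells of a type and less RNA per cell cannot be told apart, and the part of these cell types in the splicing values was not tested. On control arrays 50.4 to 63.5% of spots were well above background in Cy3, and on cold arrays 58.0 to 61.1%. The pool channel was less even, at 27.0 to 54.9% and 40.5 to 64.0%.

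After loess, the log2 changes of the splicing genes had a median of -0.09, against -0.01 over all features. The median was -0.48 in the authors' value table and -0.95 with arrays centred on their median. Lower in cold were 40 of 60 (66.7%), against 52.0% of all features and 53.1% of those with a symbol. A total of 13 members (21.7%) were called, near the background of 24.7%. They split unevenly, with 11 lower (18.3%, background 12.5%) and 2 higher (3.33%, background 12.2%), but without cold replicate 1 the split was even, at 3 lower and 3 higher. All 33 members called with median centring (55%, background 29.8%) were lower. So were all 19 called in the authors' table (31.7%, background 19.8%) and all 11 with the processed signals (18.3%, background 19.0%). Of all features, called or not, 77.1, 49.3 and 61.5% were lower under these scalings. After loess, 1 of 60 members (1.67%) was below an unadjusted p of 0.01, where the background was 8.64%. That count was 0 to 3 with 1 array left out and 3 with Cy3 alone, and the difference in share was not tested. No member had a Benjamini-Hochberg adjusted limma p under 0.05, where the background was 0%, and the methods' t-test called none after adjustment either and 11 before it (18.3%, against 21.9% of all features). The lowest adjusted p was 0.109 among members and 0.0576 over all features. In no member did the cold arrays lie wholly above or below the control arrays, which happened in 5.22% of features. The count of called members leaned on single arrays, as did the background. It was 7 without control replicate 1 or control replicate 3 (backgrounds 18.8 and 21.7%) and 8 without control replicate 4 (23.9%). It was 6 without cold replicate 1, cold replicate 3 or cold replicate 4, or 10.0% of the members, where 18.3, 17.1 and 23.3% of all features were called. Without cold replicate 2 it was 16 (26.7%), against 30.1% of all features.

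**Figure D1:**
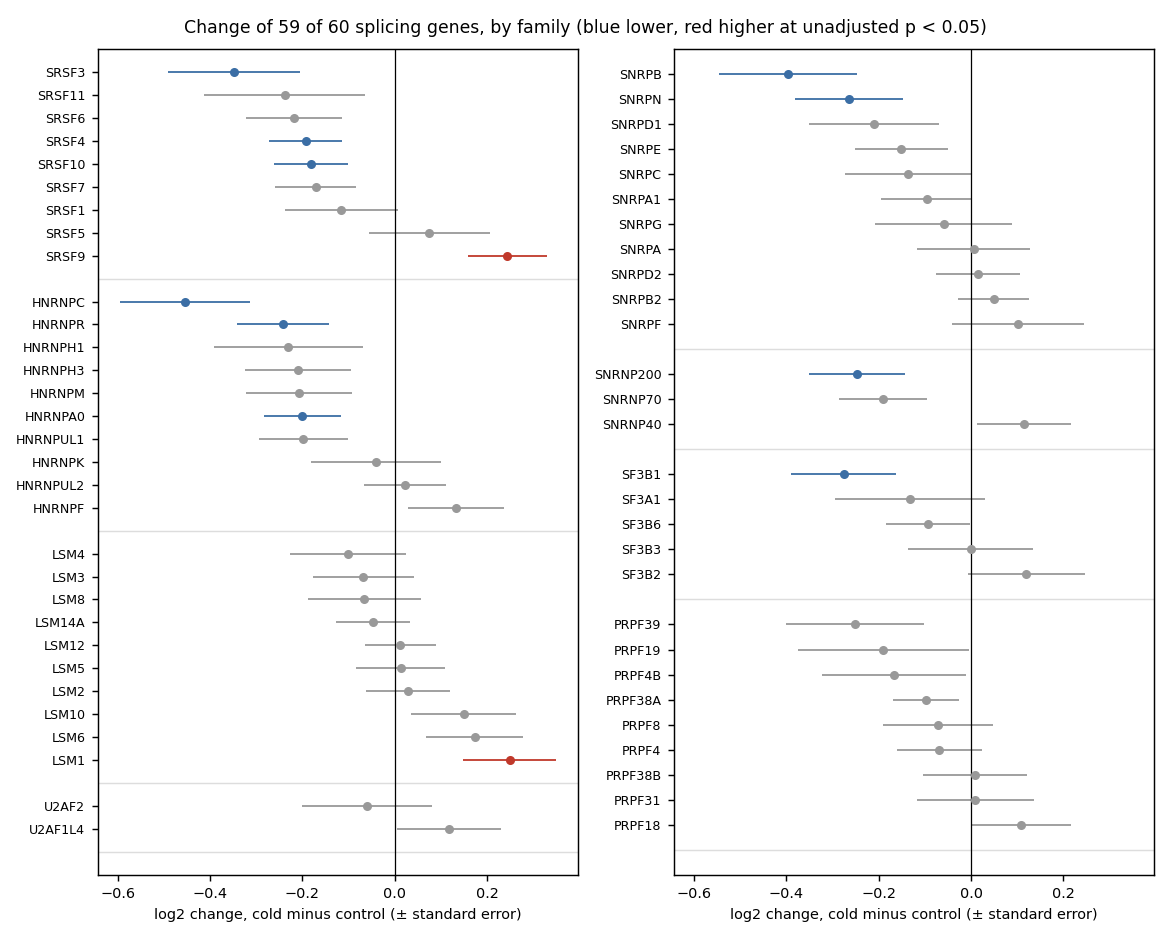
Log2 change (cold minus control, horizontal axis) of 59 of the 60 splicing genes, grouped by family, with bars of 1 standard error on each side. The 10 genes in blue were called lower and the 2 in red higher at an unadjusted limma p, most of the SRSF and HNRNP genes lie left of 0, and the LSM genes lie around 0.

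The families differed in their medians, as a description without a test. HNRNP genes had a median log2 change of -0.20, and 8 of 10 were lower. This was the lowest median among families of more than 3 genes in the loess ratio, but in Cy3 alone SF3 (-0.21) and PRPF (-0.20) lay below HNRNP (-0.18). The SRSF genes followed at -0.18 with 7 of 9 lower. Among the remaining families, the median was -0.19 for 3 SNRNP genes, -0.10 for 11 SNRP genes, -0.09 for 5 SF3 genes and -0.08 for 10 PRPF genes. The SNRP median turned to 0.027 on the arrays of slide position 1 alone, with only cold replicates 1 and 2, and was -0.22 without cold replicate 2. The SF3 median was 0.016 in its highest value with 1 array left out. LSM genes had a median of 0.01, with 6 of 10 higher, but -0.098 with the processed signals of the scanner software, -0.32 in the authors' value table, where 9 of 10 were lower, and -0.77 with arrays centred on their median. All features had medians of -0.099, 0.012 and -0.43 in the same order. The pair of U2AF genes had a median of 0.029, which was -0.011 in Cy3 alone.

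Array by array, the median deviation of all members from their control means was -0.06 to 0.07 in control. It was -0.16, -0.02, -0.08 and -0.09 on the 4 cold arrays. Only cold replicate 2 stayed within the control range. For the HNRNP genes, control arrays ranged from -0.14 to 0.10 and cold arrays from -0.23 to -0.09, and for SRSF genes from -0.19 to 0.13 and from -0.30 to -0.12. Both families overlapped between the groups.

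**Figure D2:**
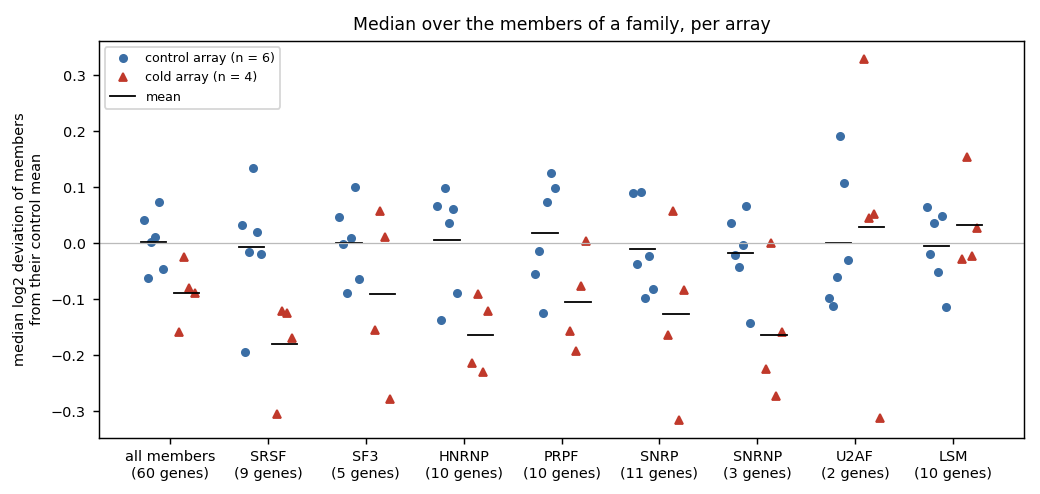
Median over the members of each family of the log2 deviation from the control mean (vertical axis), with 1 circle per control array (n = 6), 1 triangle per cold array (n = 4) and a line at the group mean. Over all members 3 of 4 cold arrays lie below the control arrays, and in every single family the groups overlap.

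Among the 9 SR proteins, 3 members were called lower and 1 higher, where 12.5% of all features were called lower and 12.2% higher. SRSF3 encodes the smallest SR protein, which also takes part in mRNA export. SRSF3 ran from -0.70 to -0.09 on control arrays with a median of -0.31, and was -0.94, -0.52, -0.86 and -0.53 on cold arrays. Cold replicates 1 and 3 lay below every control array and the other two within the control range. Its log2 change was -0.35 (standard error 0.14, limma p = 0.0338, exact permutation test, two-sided, p = 0.0571).

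SRSF4, which encodes a large SR protein, lay between 0.13 and 0.40 in control with a median of 0.20. On the cold arrays SRSF4 was -0.09, 0.13, 0.06 and -0.01, so that 3 of 4 fell below the control range. Its log2 change was -0.19 (standard error 0.08, limma p = 0.0323, exact permutation test, two-sided, p = 0.0143), with 1 of its 4 probes in the other direction. SRSF10, whose product acts as a splicing repressor when dephosphorylated, had control values of -0.16 to 0.16 with a median of 0.05 and cold values of -0.27, -0.08, -0.10 and -0.14. Only cold replicate 1 lay below the control range of SRSF10, and its log2 change was -0.18 (standard error 0.08, limma p = 0.0458, exact permutation test, two-sided, p = 0.0333). All 6 of its target sequences were lower, by -0.25 to -0.12, but target sequences of 1 gene are transcript models that can share sequence and are not independent. SRSF7 was lower in 4 of 4 and SRSF11 in 5 of 5 target sequences, though neither gene was called.

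SRSF9 went the other way. Its control values were 0.08 to 0.33 with a median of 0.17, and cold values were 0.38, 0.47, 0.61 and 0.27. Of these, 3 exceeded every control array. The log2 change was 0.24 (standard error 0.09, limma p = 0.0156, exact permutation test, two-sided, p = 0.0143), with all 4 probes higher, but -0.058 with the processed signals of the scanner software and -0.20 with arrays centred on their median. The medians of all features under these scalings were themselves -0.099 and -0.43. SRSF9 encodes a short SR protein related to SRSF1, whose own log2 change was -0.12 in the ratio and 0.044 in Cy3 alone, and not called.

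HNRNPC had the lowest p of all members in the ratio. The gene encodes a protein that binds uridine-rich stretches of new transcripts. HNRNPC ran from -0.64 to 0.01 in control with a median of -0.42, and was -0.86, -0.97, -0.57 and -0.73 in cold. Cold replicates 1, 2 and 4 lay below every control array and cold replicate 3 just within the range. Control arrays averaged -0.33 ± 0.26 (SD, n = 6) and cold arrays -0.78 ± 0.17 (SD, n = 4). The change of -0.45 on the log2 scale (standard error 0.14, limma p = 0.00814, adjusted p = 0.109, exact permutation test, two-sided, p = 0.0238) came with all 4 probes lower by -0.64 to -0.37. It was also the member with a p under 0.01. In Cy3 alone the change of HNRNPC was -0.30 and not called, and its pool channel was 0.11 higher on cold arrays.

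HNRNPR, whose product is a close relative of the mRNA-binding protein SYNCRIP, was measured at 0.13 to 0.49 in control, with a median of 0.37, and at 0.04, 0.29, -0.10 and 0.13 in cold. Only cold replicate 2 stayed inside the control range. HNRNPR had a log2 change of -0.24 (standard error 0.10, limma p = 0.0341, exact permutation test, two-sided, p = 0.0381), the same in direction in all 8 probes. HNRNPA0, known for binding AU-rich elements of inflammatory mRNAs, lay between -0.16 and 0.17 in control with a median of -0.02, and at -0.23, -0.11, -0.21 and -0.21 in cold. For this gene 3 cold arrays were below the control range, close to each other. The log2 change of HNRNPA0 was -0.20 (standard error 0.08, limma p = 0.0357, exact permutation test, two-sided, p = 0.0286). HNRNPA0 was at -0.11 in Cy3 alone and -0.061 in the authors' table, and was called in neither. HNRNPF, which binds runs of guanines, had the largest increase of its family in the loess ratio, 0.13 (standard error 0.10), was not called, and turned to -0.35 in the authors' table and -0.89 with median centring, where the medians of all features were 0.012 and -0.43. HNRNPH1 and HNRNPH3, its relatives, were lower in 4 of 4 target sequences each and not called.

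Next is the Sm ring. SNRPB encodes Sm B, a core protein shared by the spliceosomal snRNPs. SNRPB ran from -0.15 to 0.70 in control with a median of 0.07, and was -0.17, -0.09, -0.48 and -0.27 in cold. Cold replicates 1, 3 and 4 lay below the control range, while control replicate 3 stood far above the other control arrays. The log2 change was -0.40 (standard error 0.15, limma p = 0.0225, exact permutation test, two-sided, p = 0.0238).

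SNRPN encodes Sm N, a near-identical relative of Sm B that is best known from brain. Its values were -0.05 to 0.47 in control with a median of 0.06, and -0.19, 0.09, -0.31 and -0.18 in cold. Of the cold arrays, 3 lay below the control range. SNRPN changed by -0.26 on the log2 scale (standard error 0.12, limma p = 0.0446, exact permutation test, two-sided, p = 0.0524). Both genes were highest on control replicate 3 and lowest on cold replicate 3. Whether their probes share signal could not be checked without probe sequences, so the pair may not be separate observations. Of the other ring members measured, SNRPD1 was at -0.21 (standard error 0.14), SNRPE at -0.15 (standard error 0.10), SNRPG at -0.06 (standard error 0.15), SNRPD2 at 0.02 (standard error 0.09) and SNRPF at 0.10 (standard error 0.14), none of them called. SNRPF turned to -0.29 in the authors' table and -0.77 with median centring, and SNRPD2 was at -0.54 in that table. All features had medians of 0.012 in that table and -0.43 with median centring.

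**Figure D3:**
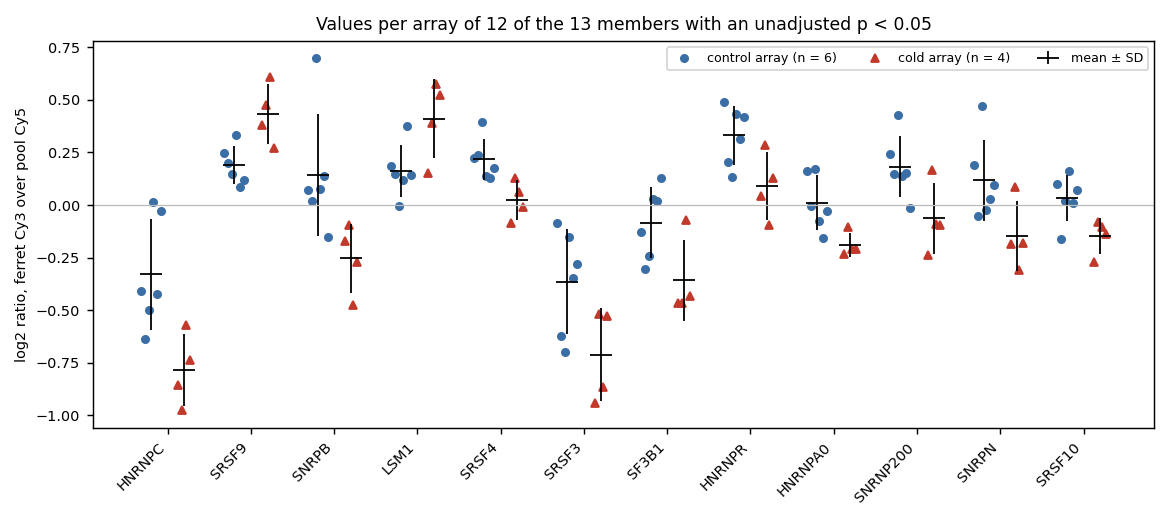
Log2 ratio of ferret Cy3 over pool Cy5 (vertical axis) for 12 of the 13 members with an unadjusted limma p under 0.05, in order of p, with 1 circle per control array (n = 6), 1 triangle per cold array (n = 4) and the mean with SD. In every gene at least 1 cold array overlaps the control arrays, and SNRPB has 1 control array at 0.70.

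Next come the proteins particular to the U1, U2 and U5 snRNPs. PRPF39, a U1-associated factor, was lower in 5 of 5 target sequences with a log2 change of -0.25 and was not called. PRPF8, the large scaffold protein of the U5 snRNP, had a log2 change of -0.07, and PRPF18, a factor of the second splicing step, one of 0.11 (standard error 0.11), which turned to -0.091 with the processed signals and -0.29 with median centring. All features had medians of -0.099 and -0.43 there.

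SF3B1 encodes the largest subunit of the U2 snRNP's branch point complex and is often mutated in myelodysplastic syndromes. SF3B1 ran from -0.30 to 0.13 in control with a median of -0.05, and was -0.47, -0.46, -0.07 and -0.43 in cold. Cold replicate 3 alone lay among the control arrays. The log2 change was -0.28 (standard error 0.11, limma p = 0.034, exact permutation test, two-sided, p = 0.0571), and 11 of 12 probes were lower. SF3B2, another subunit of the same complex, had a log2 change of 0.12 in the ratio (standard error 0.13) and was not called. In the separate channels SF3B2 was at -0.25 in Cy3 and at -0.28 in the Cy5 pool, and its change was -0.017 with the processed signals, -0.43 in the authors' table and -0.92 with median centring. All features had medians of -0.099, 0.012 and -0.43 in the same order.

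SNRNP200, the U5 helicase that unwinds U4 from U6, ran from -0.01 to 0.43 in control with a median of 0.15, and was -0.24, 0.17, -0.09 and -0.10 in cold. Cold replicate 2 alone lay within the control range. SNRNP200 had a log2 change of -0.25 (standard error 0.10, limma p = 0.0361, exact permutation test, two-sided, p = 0.0524), with all 4 probes lower. SNRNP70, the U1 protein, had a log2 change of -0.19 and SNRNP40, another U5 protein, one of 0.11 (standard error 0.10). Neither was called, and SNRNP40 turned to -0.044 with the processed signals, -0.035 in the authors' table and -0.39 with median centring. The medians of all features there were -0.099, 0.012 and -0.43. Of the U2AF genes, which mark the end of the intron for the U2 snRNP, U2AF2 had a log2 change of -0.06 (standard error 0.14) with cold values from -0.47 to 0.31, and U2AF1L4, from a single probe, one of 0.12 (standard error 0.11). Neither was called, and U2AF2 turned to 0.32 in the authors' table.

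The LSM family held the other gene called higher. LSM1 belongs to the cytoplasmic LSm ring, which serves mRNA decapping and decay and not splicing. LSM1 ran from 0.00 to 0.37 in control with a median of 0.15, and was 0.15, 0.39, 0.58 and 0.52 in cold. Only cold replicate 1 lay inside the control range. The log2 change was 0.25 (standard error 0.10, limma p = 0.032, exact permutation test, two-sided, p = 0.0381) with all 4 probes higher, but -0.043 in the authors' value table and -0.44 under median centring. The medians of all features under the same scalings were 0.012 and -0.43. LSM4, found in the decay ring and in the U6 ring, had a log2 change of -0.10 (standard error 0.13) that rested on cold replicate 3, at -0.45, and turned to 0.049 without it. For LSM6 and LSM10 the log2 changes were 0.17 and 0.15, neither was called, and both were below 0 in the authors' table (-0.23 and -0.31). LSM10 is specific to the U7 snRNP of histone mRNA processing.

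In 9 of the 11 members called lower, all 4 cold arrays lay below the control median. These members were chosen by the same values, so that count largely follows from the choice. Its share among all features called lower was not computed. Within genes, all probes pointed in 1 direction in 26 members and in both directions in 34. Of 22 members with more than 1 target sequence, 18 had all in the same direction, and HNRNPK, LSM14A, PRPF38B and SNRPA had a mixture.

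In the control animals, most splicing genes gave more signal in PBMC than in the pool. The control mean of the log2 ratio was above 0 for 51 of 60 members (85.0%), against 54.4% of all features. LSM10 (0.48), HNRNPF (0.46) and HNRNPK (0.44) stood highest. The lowest were SRSF3 (-0.37), SNRPD2 (-0.34) and HNRNPC (-0.33), so that SRSF3 and HNRNPC, both called lower, were already among the lowest in control. Without a dye swap these ratios include any dye bias of the probes. The SD between control arrays had a median of 0.153 over the members and 0.160 over all features. PRPF38A and LSM12 varied least (SD 0.06 and 0.07, n = 6), and PRPF19, SRSF11 and PRPF4B most (SD 0.38, 0.34 and 0.32, n = 6).

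Read in the green channel alone, quantile normalised between arrays, 43 of 60 members were lower, with a median of -0.11 against -0.04 over all features. Here 7 members (11.7%) were called against a background of 24.9%, 6 of them lower (10.0%, background 12.8%), and none after adjustment, where the background was 2.83%. SNRPB, SNRPN, SNRNP200 and LSM1 were called in both readings and in the same direction. HNRNPUL1 at -0.41, SNRNP70 at -0.31 and PRPF38A at -0.26 were called in Cy3 only. All 13 members called in the ratio had the same sign in Cy3 alone, where 9 of them were not called. Cy3 is the numerator of the ratio that chose these members, so a shared sign largely follows from the choice. The pool channel, meant to be the same on all arrays, was lower on cold arrays for 8 of 60 members, where 38.0% of all features were lower, and higher for the other 52, with a median log2 difference of 0.06 against 0.03 over all features. It called 5 members (8.33%), near the background of 8.66%.

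**Figure D4:**
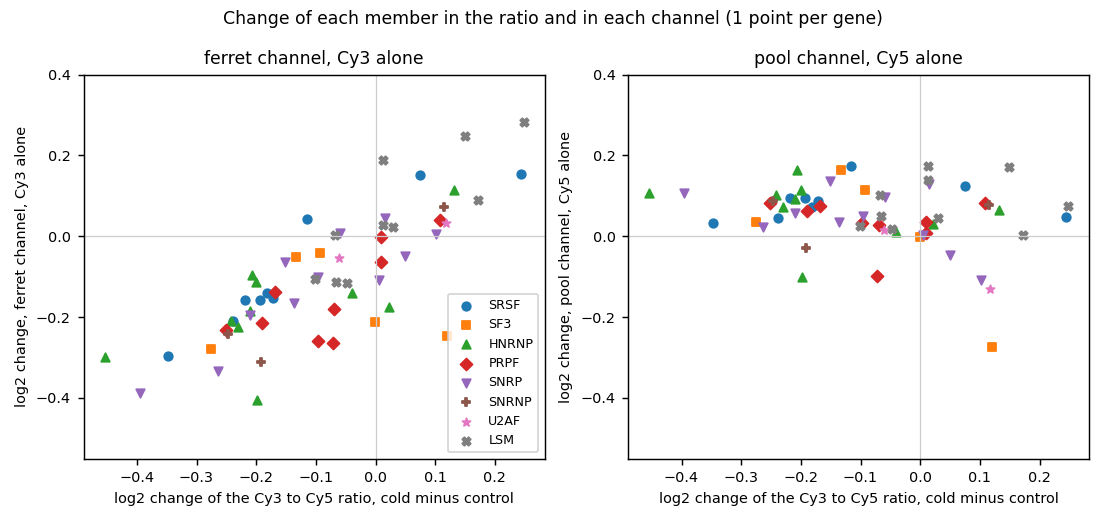
Log2 change of 59 of the 60 splicing genes in the Cy3 to Cy5 ratio (horizontal axes) against its log2 change in Cy3 alone (left, vertical axis) and in the Cy5 pool alone (right, vertical axis), 1 point per gene, with families by colour and shape. Cy3 changes run along with the ratio, of which Cy3 is the numerator, while 51 of these 59 pool values lie above 0.

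The size of the decrease depended on how the arrays were scaled. A total of 54 of 60 members were lower in the authors' value table, with a median of -0.48 against 0.01 over all features. With arrays centred on their median, 59 of 60 were lower with a median of -0.95, where all features had -0.43. The members were bright, with 36 of 60 in the top quartile of mean Cy3 signal and 17 in the next. In that top quartile the median over all features was -0.40 in the value table and -0.93 under median centring, but 0.02 after loess. Members of the top quartile had -0.58, -1.08 and -0.12 under the same 3 scalings. In the dimmest quartile the value table gave a median of 0.48 over all features.

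**Figure D5:**
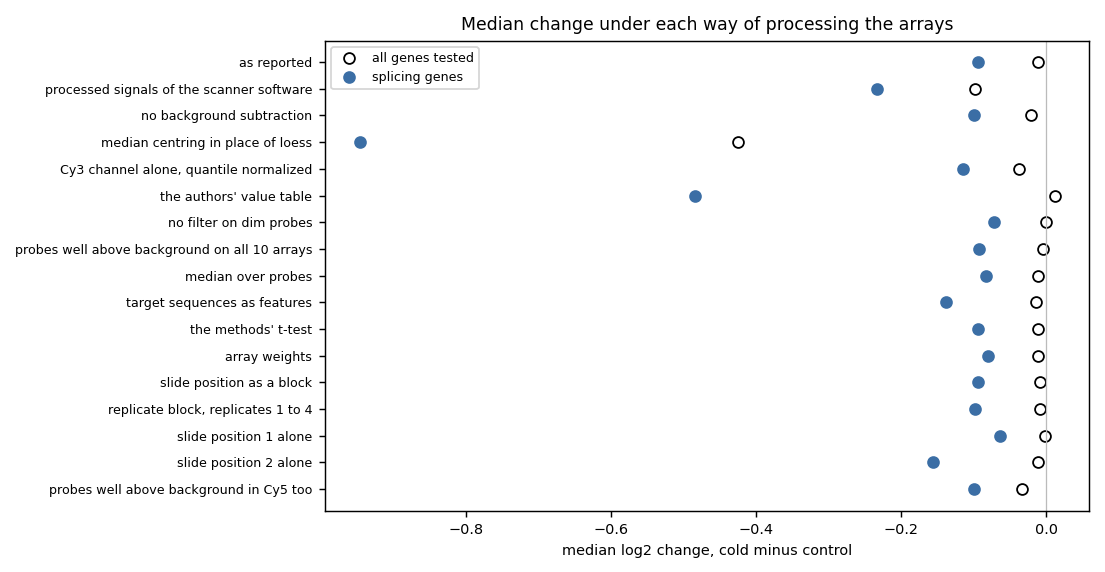
Median log2 change, cold minus control (horizontal axis), of the splicing genes (filled) and of all features tested (open) under each way of processing the arrays. The splicing genes lie left of all features in every row, and furthest left with median centring (-0.95) and in the authors' value table (-0.48).

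Other genes of the pathway were taken from lists outside the families. Of 170 genes listed, 113 were measured, 76 of them lower (67.3%), with a median log2 change of -0.05. A total of 27 (23.9%) were called, close to the 24.7% of all features, with 22 lower (19.5%, background 12.5%) and 5 higher (4.42%, background 12.2%). Below 0.01 were 9 (7.96%, background 8.64%), and in 8 (7.08%, background 5.22%) the groups did not overlap. The lists below are small, and their counts stand beside the same background of 12.5% called lower and 12.2% called higher. Of 14 genes of snRNP assembly, 11 were lower with a median of -0.16, and 5 were called lower and 1 higher. Genes of the exon junction complex and SR-related coactivators had 10 of 15 lower with a median of -0.14 and 5 called lower. Spliceosome helicases and core factors had 30 of 47 lower, a median of -0.02, and 6 called lower and 2 higher. Regulators of alternative splicing had 20 of 27 lower, a median of -0.07, and 5 called lower and 2 higher. Of 4 SR protein kinases none was called, and of 6 minor spliceosome proteins 1 was.

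GEMIN5 selects small nuclear RNAs for the SMN complex, which loads Sm rings onto them. GEMIN5 ran from -0.05 to 0.10 in control with a median of 0.03, and was -0.26, -0.29, -0.35 and -0.31 in cold. All cold arrays lay below all control arrays. The log2 change was -0.32 (standard error 0.06, limma p = 0.000394, adjusted p = 0.0638, exact permutation test, two-sided, p = 0.00476, the smallest possible), the lowest p of the list. WDR77, a partner of the methyltransferase that modifies Sm proteins, changed by -0.25 (standard error 0.08) and also did not overlap. GEMIN2, named after its value was seen, changed by -0.27 (standard error 0.09). The other GEMIN genes measured, named in the same way, went in both directions and were not called. GEMIN4 was at -0.19, GEMIN8 at -0.04, GEMIN6 at 0.05 and GEMIN7 at 0.15. SNUPN, which carries assembled snRNPs into the nucleus, was called higher, changing by 0.41 (standard error 0.12). Cold replicate 4 at 0.10 lay within the control range of -0.18 to 0.17.

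PNN, which encodes a nuclear speckle protein of the SR-related group, had control values of -0.55 to -0.03 and cold values of -0.62, -0.56, -0.86 and -0.70. The groups did not overlap, and the log2 change was -0.44 (standard error 0.12, limma p = 0.00317, exact permutation test, two-sided, p = 0.00952). DDX42, a helicase bound to the SF3B complex, changed by -0.32 (standard error 0.09), and PLRG1, of the Prp19 complex, by -0.29 (standard error 0.08), both without overlap. RBM5 and SCAF11 changed by -0.35 each (standard errors 0.11), with overlap. CCDC12, a spliceosome protein named in the study, changed by -0.24 (standard error 0.08, limma p = 0.0119, exact permutation test, two-sided, p = 0.0143). RBFOX2, RSRC1 and SYNCRIP, also named there, were not matched by the accessions used here.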

How the data were processed

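The authors deposited, for each of 10 arrays, spot intensity values and flags written by the Agilent Feature Extraction software, and a table holding 1 log2 value per array for each target sequence, whose scale and direction were checked against the scanner values. From the intensities, 416280 spots of 181312 probes (4 for each of 45328 target sequences) were background corrected (normexp, offset 50) and loess normalised within arrays (span 0.3). Probes well above background in Cy3 on at least 4 arrays were kept (111051), and averaged per gene. Accessions were named from the RefSeq ferret table, which named 21104 target sequences of 12918 genes, and the 26303 features include unnamed sequences. Groups followed the labels. Cold and control were compared with limma 3.58.1 in R 4.3.3 (lmFit, eBayes, Benjamini-Hochberg), and single genes also by exact permutation over 210 splits of the arrays, whose smallest p is 0.00476. The test was run on simulated data with a log2 change of 1, larger than that of any member, and with independent noise. That run does not show how the test performs on changes as small as those of the members. The 6 control and 4 cold arrays limit the precision.

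The members, the marker lists and the pathway lists were chosen with earlier results of these data known, so no p was adjusted over a list. Genes were named by rule: called members, the extremes and the lowest p of each family, and up to 8 other splicing genes with p under 0.01, with 4 that the study names. Members shown for their target sequences, levels, spread or Cy3 calls were named after their values were seen. Alternatives were the processed signals, no background subtraction, median centring, Cy3 alone, the authors' table, other probe filters and summaries, the methods' t-test, array weights, blocks for slide position and replicate number, and leaving out each array. Slide, each holding its own array, was not fitted. Adipose tissue, liver and RT-qPCR were not analysed here. Sequences of probes and genes were not used here. For 1 member the totals include its values, which are not given here on their own.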

Additional observations from a re-analysis of the deposited data

Results flagged for a closer look

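In 4 of 78 groups of values checked (the named genes and the family medians, in each group of arrays), 1 array stood far from the others of its group. Chance alone flags about 1 in 20 such groups. For SNRPB, control replicate 3 was at 0.70, with the other control arrays at -0.15 to 0.14. For SF3B1, cold replicate 3 was at -0.072, with the other cold arrays at -0.47 to -0.43. For SF3B2, control replicate 2 was at 0.30, with the others at -0.05 to 0.08. For DDX42, cold replicate 4 was at 0.22, with the others at -0.02 to 0.00. All are log2 ratios, and their cause was not tested.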

How the results depend on the processing

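No member passed the adjusted threshold under any alternative, and the median of the members stayed below 0 in all of them. The number of called members, 13 as reported, was 33 with median centring (55%, against 29.8% of all features), 7 with Cy3 alone (11.7%, against 24.9%), 8 with array weights (13.3%, against 27.8%), 4 with the replicate block (6.67%, against 24.3%), and 6 to 16 with 1 array left out. It was 19 in the authors' table (31.7%, against 19.8%) and 17 of 63 with no filter on dim probes (27%, against 22.2%). At p under 0.01 (1 as reported, against 8.64% of all features) it was, with the share of all features in parentheses, 3 with Cy3 alone (9.87%), and 2 with median centring (4.42%), the authors' table (4.16%), no filter on dim probes (6.95%) or the median over probes (8.60%). It was 0 with the processed signals (5.72%), no background subtraction (8.19%), array weights (11%), the methods' t-test (6.56%), or a block for slide position (7.88%) or replicate number (9.35%), and 0 to 3 with 1 array left out (4.85 to 12.9%). Of 113 other splicing genes, 27 as reported, 60 were called with median centring (53.1%, against 29.8% of all features) and 16 with the replicate block (14.2%, against 24.3%), and of their 200 target sequences 48 (24.0%, against 24.6%). In alternatives added after seeing the data, slide position 1 alone gave 5 called members (8.33%, against 16.2%), with 0 at 0.01 (against 3.88%), and slide position 2 alone 2 (3.33%, against 6.88%), with 0 at 0.01 (against 1.54%), and 1 other splicing gene (0.885%, against 6.88%). Position 1 held control replicates 1, 2, 4 and 6 and cold replicates 1 and 2. Position 2 held control replicates 3 and 5 and cold replicates 3 and 4, so that both rest on few arrays.

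The median of the members was -0.23 with the processed signals, -0.95 with median centring, -0.48 in the authors' table and -0.16 in slide position 2. With the processed signals the family medians that moved were SRSF -0.28, HNRNP -0.32, PRPF -0.27 and LSM -0.10. With median centring they were SRSF -1.001, SF3 -1.004, HNRNP -1.08, PRPF -0.74, SNRP -1.08, SNRNP -1.19 and LSM -0.77. In the authors' table they were SRSF -0.55, SF3 -0.53, HNRNP -0.59, PRPF -0.33, SNRP -0.54, SNRNP -0.67, U2AF 0.46 and LSM -0.32. With Cy3 alone SF3 was -0.21 and PRPF -0.20. SNRP was 0.027 in slide position 1 and -0.25 in position 2, where LSM was -0.083, and SNRP ranged from -0.22 to -0.036 with 1 array left out. SRSF9 turned to -0.058 with the processed signals and -0.20 with median centring, and LSM1 to -0.44 with median centring and -0.043 in the authors' table. All features themselves had medians of -0.099 with the processed signals, -0.43 with median centring and 0.012 in the authors' table. The cause was not tested.

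The labels do not say that replicate numbers pair the arrays. The deviations of same-numbered arrays correlated at -0.30, 0.54, 0.10 and -0.19. Without a comparison with differently numbered arrays, these values cannot show whether the numbers pair them. The replicate block is therefore given as an alternative. The 4 cold arrays limit the precision.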
